A study of Mus musculus with 6 samples.

Results

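The genes described here are 73 channel genes and channel-associated genes of the mouse kidney, among 23669 genes in the deposited table. They comprise 41 potassium channel genes (Kcn), 12 genes of voltage-gated calcium channels (Cacn) and 9 genes named for TRP cation channels (Trpc, Trpm and Trpv). A further 6 are anoctamins (Ano) and 5 belong to the ClC family (Clcn). The members were chosen by their gene names and by their level, a mean of at least 1 FPKM over the 6 libraries. FPKM is a count of sequenced fragments scaled to transcript length and to the depth of the library. Kcnj1, Clcn5, Trpm6 and Trpv5 were left out by name. Of the remaining 156 genes with such names, 73 reached that mean, 77 lay under it and 6 had no value in any library. The mean over all libraries chose the members, so their levels are a description. The rule did not use the difference between the groups, but it was set with earlier results of these data known. For 5 members only 1 group had a mean of at least 1 FPKM.

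Channels are pores through which ions cross membranes down their gradients. In the kidney tubule, potassium channels set the membrane voltage that drives transport and return potassium across the membrane. Chloride channels of the ClC and anoctamin families carry chloride across the cell surface or serve in endosomes and lysosomes. Voltage-gated calcium channels consist of a pore subunit with auxiliary beta and alpha2delta subunits, and TRP channels are cation channels that respond to stretch, ligands or calcium stores. Many members are not pores: Kcne, Kcnab, Kcnip and Kcnmb genes encode partners of potassium channels, and Trpc4ap encodes a protein that binds a TRPC channel and is no channel itself.

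RNA was sequenced from whole kidneys at postnatal day 3, in 3 wild type libraries and in 3 from kidneys labelled R26NICD2/+Kspcre, for which NICD2 is written below. The NICD2 kidneys carry 1 copy of a Rosa26 allele for the intracellular, active part of the receptor Notch2, switched on by a Cre recombinase that the promoter of Ksp-cadherin drives in tubule epithelium. The wild type group, as labelled, carries neither allele, so effects of the Cre and of Notch2 activity cannot be told apart. The labels do not state whether libraries of a group come from separate animals, and p-values measure the spread between these libraries. The table has an entry for a human Notch2 transcript, and it read 0, 0.03 and 0.03 FPKM in wild type and 75.4, 79.6 and 60.2 FPKM in NICD2. The Notch target Nrarp was at 17.4 to 20.6 FPKM in wild type and 120.2 to 170.8 FPKM in NICD2. Of the other Notch targets checked, Heyl, Hey2 and Hes1 were higher in every NICD2 library than in any wild type library. Hey1 was at 13.5 ± 1.1 FPKM in wild type and 13.1 ± 0.459 FPKM in NICD2 (SD, n = 3), with overlapping groups.

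The libraries were of like depth, estimated at 16000000 to 17700000 fragments. The libraries differed in adrenal content. The summed FPKM of 8 adrenal cortex markers was 149 to 154 in 4 libraries, but 5.46 in wild type replicate 3 and 2.45 in NICD2 replicate 1, and 8 markers of adrenal medulla and sympathetic neurons summed to 1.38 and 0.31 FPKM in the same libraries, against 70.5 to 86.2 FPKM in the other 4. Transcripts of 4 genes of the Y chromosome (Uty, Kdm5d, Ddx3y and Eif2s3y) were at 0 FPKM in NICD2 replicate 3 and present in the other 5 libraries. Markers of kidney cell types were present in every library and many moved between the groups. In these counts, fell and rose mean a limma call at adjusted p under 0.05, which 8.79% of all 13765 genes tested received. Of 10 intercalated cell markers 9 fell, from a summed level of 223 to 238 FPKM in wild type to 73.3 to 81.9 FPKM in NICD2. Of 9 principal cell markers 5 fell and 1 rose (395 to 424 FPKM, then 217 to 261 FPKM). Of 7 distal tubule markers 4 fell (181 to 206, then 146 to 161 FPKM), and of 8 podocyte markers 7 fell (378 to 422, then 272 to 292 FPKM). Of 10 proximal tubule markers 2 fell and none rose (2163 to 2263, then 1556 to 1842 FPKM). In the thick ascending limb list, 3 of 8 fell and 1, Umod, rose. The sum of this list was 350 to 389 FPKM in wild type and 485 to 613 FPKM in NICD2, and without Umod 239 to 268 and 185 to 247 FPKM. Of 8 endothelial markers 2 fell (368.5 to 414.2, then 326.5 to 341.8 FPKM), and all 8 were lower on average in NICD2. Of 9 smooth muscle and pericyte markers 3 rose (504 to 600, then 630 to 889 FPKM). Of 6 ureteric bud markers 2 rose and 1 fell, of 6 urothelial markers 1 rose and 3 fell, and of 6 leukocyte markers 1 rose. In the lists for stroma, erythroid cells, neurons and glia, skeletal muscle and both adrenal tissues, limma called none. All 6 stromal markers were lower on average in NICD2, 3 of them with an unadjusted p under 0.05, but the groups of each overlapped. The part of these shifts in the channel results was not tested. In whole kidney, fewer cells of a type and less RNA per cell cannot be told apart.

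Of the 73 members, 8 were higher and 4 lower in NICD2 (limma, adjusted p under 0.05). Across all 13765 genes tested, 8.79% were called, 4.93% higher and 3.86% lower. The share among the members was 16.4%. An unadjusted p under 0.05 was found for 22 of the 73 members, and for 3450 of the 13765 genes tested. Without the 5 members with 1 group under 1 FPKM, 7 were higher and 4 lower of 68. The 6 potassium channel genes that were called all rose, and the 3 calcium channel genes that were called all fell. Fold changes are given as differences of log2(FPKM + 1), NICD2 minus wild type, with their standard error. On that scale, the change of a gene at a low level looks smaller than it is. The median over the members was -0.04, against -0.01 over all genes tested. The groups did not overlap in 24 of 73 members, and in 30.5% of all genes tested.

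**Figure D1:**
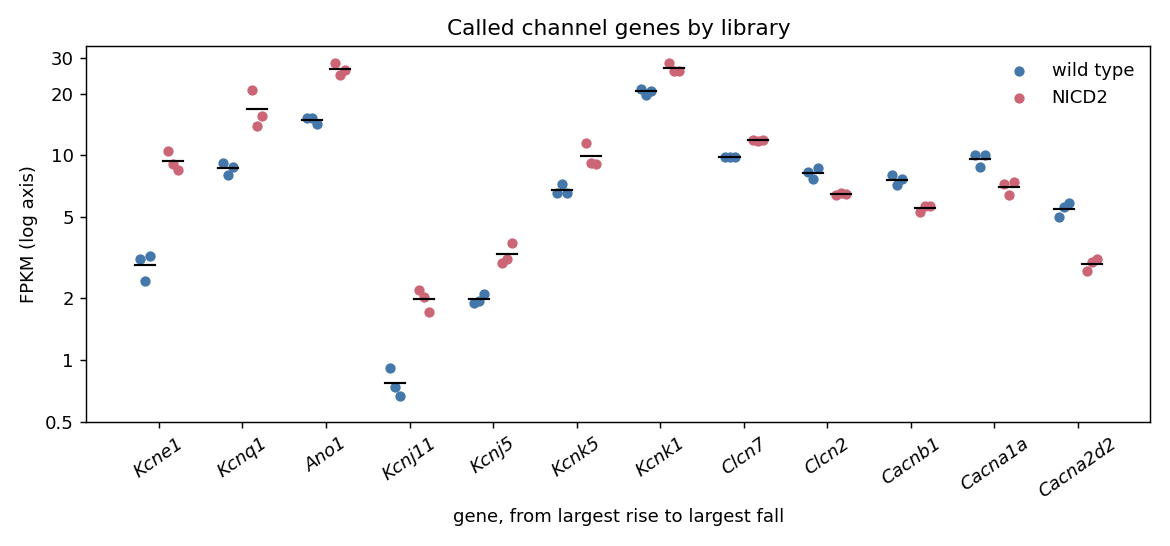
FPKM of the 12 called channel genes in each library (log axis), wild type on the left and NICD2 on the right of each gene, with the mean as a line (n = 3 per group). The groups are apart for every gene shown, from Kcne1, with a mean of 2.92 FPKM in wild type and 9.33 FPKM in NICD2, to Cacna2d2, with 5.48 and 2.95 FPKM.

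The largest rise among the members was that of Kcne1, and its partner gene Kcnq1 rose too. Kcne1 encodes a small one-pass membrane protein that binds the pore protein made from Kcnq1, and together they form a slowly opening voltage-gated potassium channel known from the heart, the inner ear and the proximal tubule. Kcne1 (chromosome 16, 92345995 to 92359468 on GRCm38) read 3.11, 2.43 and 3.21 FPKM in wild type and 10.5, 9.01 and 8.46 FPKM in NICD2. Every NICD2 library was above every wild type library, 3.2 times as high on average (log2 fold change 1.40 ± 0.11, adjusted p = 0.000169). Kcnq1 (chromosome 7, 143106742 to 143427050) read 9.16, 8.03 and 8.78 FPKM in wild type and 20.8, 13.9 and 15.6 FPKM in NICD2. Its groups were apart as well, with NICD2 replicate 1 the highest (0.86 ± 0.13, adjusted p = 0.00543). Kcnq1 shares 121 exon bases, 2.96% of its exon sequence in GENCODE, with the antisense RNA Kcnq1ot1, and no source used here says whether strand was counted.

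The ratio of Kcne1 to Kcnq1 was higher in NICD2 as well. It was 0.34, 0.30 and 0.37 in wild type and 0.51, 0.65 and 0.54 in NICD2, so the groups were apart for the ratio too. With 3 libraries against 3 an exact permutation test cannot go below p = 0.1, and ratios are given without a test. Kcne3 and Kcne4, other partners that Kcnq1 can take, did not pass the test. Kcne3, a subunit of intestinal and other epithelia, was at 1.68 ± 0.277 FPKM in wild type and 2.04 ± 0.691 FPKM in NICD2 (SD, n = 3), and Kcne4, known to inhibit potassium channels, at 1.41 ± 0.16 and 1.66 ± 0.22 FPKM. Both were named after their values were seen. The family member that the table calls Kcne1l, on chromosome X, read 8.85, 10.7 and 8.44 FPKM in wild type and 12.2, 11.4 and 11.4 FPKM in NICD2 (0.30 ± 0.09, adjusted p = 0.0806). Without wild type replicate 2, its highest wild type library, Kcne1l was called (adjusted p = 0.037).

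Inward rectifiers pass potassium more easily into the cell than out and hold the resting voltage. Of 7 members of this class, 2 rose and none fell. Kcnj11 encodes the pore of a potassium channel that ATP closes, known from the pancreatic beta cell, where it pairs with the sulfonylurea receptor encoded by Abcc8. Kcnj11 (chromosome 7, 46097123 to 46100867) read 0.91, 0.74 and 0.67 FPKM in wild type and 2.2, 2.02 and 1.72 FPKM in NICD2 (0.75 ± 0.12, adjusted p = 0.00569). The wild type libraries were all under 1 FPKM and the NICD2 libraries all over it, so the gene reached the mean level of 1 FPKM through the NICD2 group. Its mean level rests on about 70.4 fragments per library.

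Abcc8, a neighbour of Kcnj11 on the same chromosome (46104523 to 46180039) and no member by its name, read 0.47, 0.54 and 0.53 FPKM in wild type and 3.43, 3.33 and 2.41 FPKM in NICD2 (1.41 ± 0.13, adjusted p = 0.00033). It too was tested only through its NICD2 level. The related pore gene Kcnj8 and its receptor partner Abcc9, known from vascular smooth muscle and pericytes, did not pass the test. Kcnj8 was at 9.77 ± 1.19 and 9.62 ± 0.313 FPKM in wild type and NICD2, and Abcc9 at 9.28 ± 1.11 and 8.02 ± 0.799 FPKM (adjusted p = 0.948 and 0.301). Kcnj11 was thus at 0.0794 ± 0.0104 of the level of Kcnj8 in wild type and at 0.206 ± 0.0281 of it in NICD2.

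Kcnj5, a subunit of G protein-gated potassium channels, was the other inward rectifier that rose. Kcnj5 (chromosome 9, 32314706 to 32344380) read 1.89, 1.93 and 2.11 FPKM in wild type and 2.96, 3.12 and 3.74 FPKM in NICD2 (0.52 ± 0.10, adjusted p = 0.0167). The groups were apart, and the call was lost without wild type replicate 2 (adjusted p = 0.0685) or without NICD2 replicate 3 (adjusted p = 0.0522). Kcnj5 is also known as an adrenal cortex gene. The libraries low in adrenal markers were the highest of wild type (replicate 3) and the lowest of NICD2 (replicate 1) for Kcnj5. Its call was kept with a term for those libraries (adjusted p = 0.0236) and without them (adjusted p = 0.0476).

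The most abundant inward rectifiers did not pass the test. Kcnj16 and Kcnj10 form the basolateral potassium channel of the distal tubule. Kcnj16 read 30.2, 40.5 and 38.4 FPKM in wild type and 35.2, 31.7 and 39.9 FPKM in NICD2, and its groups overlapped (-0.03 ± 0.12, adjusted p = 0.924). Kcnj10 read 13, 14.2 and 14.2 FPKM in wild type and 11.9, 11.7 and 12.5 FPKM in NICD2. Its groups did not overlap, yet the difference of -0.18 ± 0.07 was not called (adjusted p = 0.129). The ratio of Kcnj16 to Kcnj10 was 2.62 ± 0.275 and 2.95 ± 0.242, with overlapping groups. Kcnj15, a relative of Kcnj10, was at 15.6 ± 1.78 and 14.4 ± 1.34 FPKM (adjusted p = 0.55), and Kcnj2, a classical strong inward rectifier, at 0.983 ± 0.0603 and 1.12 ± 0.11 FPKM (adjusted p = 0.626). Kcnj1, the secretory channel of the thick limb and collecting duct that the choice by name leaves out, rose from 21.9 ± 2.36 to 31.6 ± 2.98 FPKM (adjusted p = 0.0144).

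Channels with a pair of pore domains per subunit are the leak channels that conduct at rest. Of 5 members 2 rose. Kcnk1, the founding member of the class, read 21, 19.8 and 20.7 FPKM in wild type and 28.3, 25.7 and 25.9 FPKM in NICD2 (chromosome 8, 125993699 to 126030685; 0.36 ± 0.06, adjusted p = 0.0107). All NICD2 libraries were above all wild type libraries by a margin larger than the range within either group, and the call was lost without wild type replicate 2 (adjusted p = 0.0535). An antisense RNA overlaps 8.01% of its exon bases.

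Kcnk5 encodes an alkali-activated leak channel that supports bicarbonate reabsorption in the proximal tubule. Kcnk5 (chromosome 14, 20140057 to 20181782) read 6.54, 7.24 and 6.57 FPKM in wild type and 11.4, 9.15 and 9.02 FPKM in NICD2 (0.48 ± 0.10, adjusted p = 0.0203). NICD2 replicate 1 was the highest, and the groups were apart. The call was lost without wild type replicate 1 (adjusted p = 0.0559) or 3 (adjusted p = 0.0669), and when genes of every level were tested (adjusted p = 0.0531).

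Kcnk3, an acid-sensitive leak channel known from the adrenal cortex, had the widest spread of all. It read 6.57, 6.61 and 1.52 FPKM in wild type and 1.55, 6.72 and 6.99 FPKM in NICD2. The low libraries were the pair low in adrenal cortex markers, 1 in each group, and Kcnk3 was on average 4.38 times as high in the other 4 libraries. The difference between genotypes was 0.04 ± 0.53 (adjusted p = 0.976), and with a term for the libraries low in adrenal markers it was 0.04 ± 0.08 (adjusted p = 0.8). In 12 members, 16.4% of 73, both libraries low in adrenal markers were below the other 4, against 4.82% of all genes tested. The reverse held for 1 member, Cacng4, against 4.32% of all genes. After Kcnk3, Kcnmb4 (1.56 times), Kcnk6 (1.37 times) and Kcnk2 (1.31 times) had the largest ratios of the other 4 libraries to the low pair. These genes were named after their values were seen. None of these genes was among the 12 called. The difference in adrenal markers is shared by 1 library of each group, so this pattern makes the groups overlap. That none was called therefore says nothing about adrenal content in the 12 calls. With a term for the libraries low in adrenal markers, 10 of the 12 calls were kept, all but Clcn2 and Clcn7. With the 4 libraries high in adrenal markers alone, 5 were kept: Kcne1, Kcnq1, Ano1, Kcnj5 and Cacna2d2. In that smaller fit limma called 555 of all genes tested, against 1210 with all 6 libraries.

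**Figure D2:**
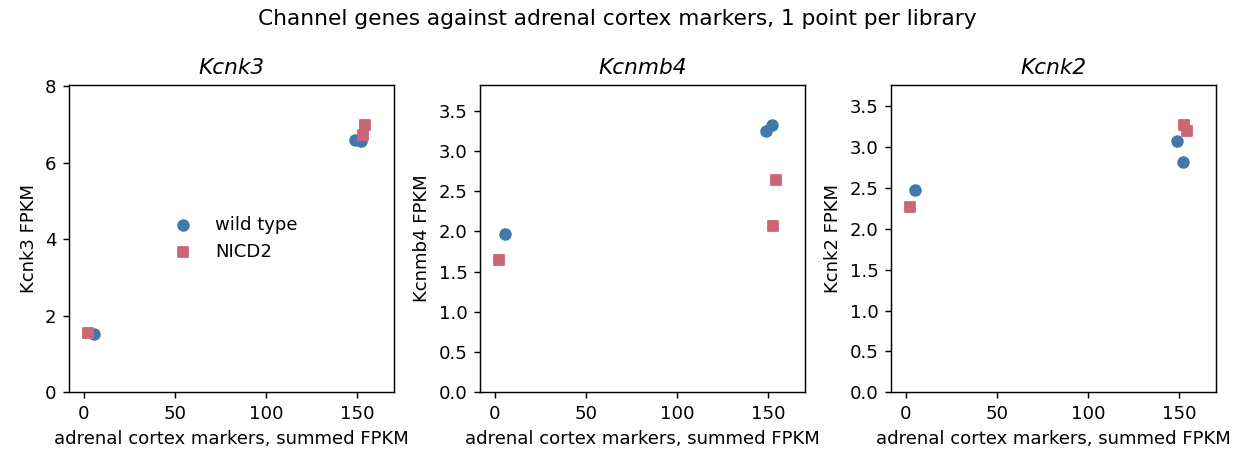
FPKM of Kcnk3, Kcnmb4 and Kcnk2 against the summed FPKM of 8 adrenal cortex markers, 1 point per library (circles wild type, squares NICD2). Kcnk3 lies near 1.5 FPKM in the 2 libraries with few adrenal markers and between 6.57 and 6.99 FPKM in the other 4.

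Voltage-gated potassium channel pores open when the membrane depolarises. Of 13 members only Kcnq1 was called. Kcnh6, a relative of the cardiac channel gene Kcnh2, was the most abundant, at 19.3, 32.7 and 34.9 FPKM in wild type and 21.3, 17.4 and 23.5 FPKM in NICD2. Wild type replicate 1 fell among the NICD2 libraries, and the difference of -0.43 ± 0.20 was not called (adjusted p = 0.236). Without wild type replicate 1, Kcnh6 was called lower (-0.69, adjusted p = 0.0175). The other 11 members of this class lay between 1.05 and 9.24 FPKM on average, and none of them was called.

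In the class of calcium- and sodium-activated channels none of 4 members was called by limma, and 1 had an unadjusted p under 0.05. It was Kcnn2, a small-conductance calcium-activated channel, at 1.11, 0.71 and 0.48 FPKM in wild type and 1.33, 1.34 and 1.32 FPKM in NICD2 (0.41 ± 0.15, adjusted p = 0.117). Wild type spread widely while the NICD2 libraries were nearly equal. Kcnma1, the large-conductance channel of flow-stimulated potassium secretion, was at 1.34 ± 0.133 and 1.39 ± 0.284 FPKM, and its brain-type partner Kcnmb4 at 2.84 ± 0.766 and 2.11 ± 0.502 FPKM (adjusted p = 0.915 and 0.336). Kcnn1, another small-conductance channel, was at 1.88 ± 0.175 and 1.85 ± 0.217 FPKM. Among the 12 partner and regulator genes of potassium channels, Kcne1 was the single call. Kcnab1, a cytoplasmic beta subunit, read 2.39, 2.95 and 2.79 FPKM in wild type and 3.2, 3.92 and 3.99 FPKM in NICD2 (0.34 ± 0.11, adjusted p = 0.0867). Kcnip2, a calcium-binding partner of Kv4 channels, read 2.07, 1.48 and 1.4 FPKM in wild type and 1, 1.23 and 1.09 FPKM in NICD2 (-0.32 ± 0.13, adjusted p = 0.156). The groups of both genes were apart, and neither passed the test.

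**Figure D3:**
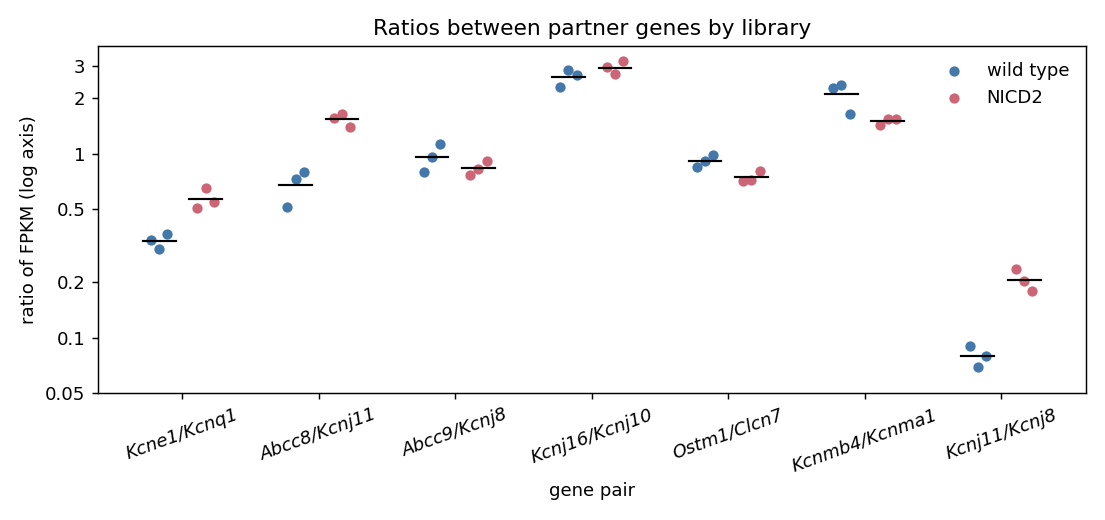
Ratio of FPKM between genes whose products pair in one channel, and of the alternative pores Kcnj11 and Kcnj8, in each library (log axis; lines are group means, n = 3). Kcne1/Kcnq1, Abcc8/Kcnj11 and Kcnj11/Kcnj8 are higher in every NICD2 library than in any wild type library, while Kcnj16/Kcnj10 and Abcc9/Kcnj8 overlap. Ostm1/Clcn7 and Kcnmb4/Kcnma1 are lower in every NICD2 library than in any wild type library. Kcnj11 and Abcc8 were under 1 FPKM in every wild type library.

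Among the anoctamins, which include calcium-activated chloride channels and lipid scramblases, 1 of 6 rose. Ano1 encodes the calcium-activated chloride channel of secretory epithelia and is known for chloride secretion into kidney cysts. Ano1 (chromosome 7, 144588549 to 144752045) read 15.3, 15.1 and 14.2 FPKM in wild type and 28.3, 24.7 and 26.2 FPKM in NICD2. The lowest NICD2 library was well above the highest wild type library (0.79 ± 0.07, adjusted p = 0.000312). Ano6, a scramblase that exposes phosphatidylserine, was the most abundant anoctamin, at 37.2 ± 1.69 and 37.3 ± 1.41 FPKM (adjusted p = 0.96). Ano8, a protein at contacts of the endoplasmic reticulum with the plasma membrane, read 6.03, 5.69 and 5.23 FPKM in wild type and 4.31, 4.53 and 4.53 FPKM in NICD2, with groups apart and no call (-0.28 ± 0.08, adjusted p = 0.0626). Ano5, Ano9 and Ano10 had log2 fold changes between -0.18 and -0.07 with overlapping groups, and were named after their values were seen.

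In the ClC family 1 of 5 members rose and 1 fell, both by little. Clcn7 encodes the chloride-proton exchanger of lysosomes. Clcn7 (chromosome 17, 25133391 to 25162103) read 9.82, 9.84 and 9.82 FPKM in wild type and 11.8, 11.8 and 11.9 FPKM in NICD2 (0.24 ± 0.06, adjusted p = 0.0413). Its spread within groups, 0.451% of the level, was smaller than the 3.12% that counting about 1024 fragments gives. Ostm1, the obligate partner of Clcn7, was at 8.99 ± 0.645 and 8.81 ± 0.693 FPKM (adjusted p = 0.886).

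Clcn2, a chloride channel of the cell surface, read 8.32, 7.61 and 8.62 FPKM in wild type and 6.4, 6.57 and 6.45 FPKM in NICD2 (chromosome 16, 20702435 to 20716712; -0.30 ± 0.07, adjusted p = 0.0408). The groups of Clcn2 were apart, but the calls of Clcn2 and Clcn7 were both lost on leaving out any 1 of the 6 libraries (adjusted p = 0.0643 to 0.126 over both genes), on adding the replicate block (adjusted p = 0.0719 and 0.0787) and with the adrenal term (adjusted p = 0.0511 and 0.0556). With no filter on low values the adjusted p was 0.076 for Clcn2 and 0.0533 for Clcn7. The endosomal exchangers were not called: Clcn4 was at 22.6 ± 0.788 and 21.6 ± 0.382 FPKM, and Clcn3 at 14.6 ± 1.78 and 14.5 ± 0.808 FPKM.

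Of the 12 calcium channel genes 3 fell and none rose, and 10 of the 12 had a fold change below 0. Among all genes tested 3.86% were called lower and 51.8% had a fold change below 0, and among the 73 members 46 did. Cacna2d2 encodes an extracellular alpha2delta subunit that raises the number of channels at the surface. Cacna2d2 (chromosome 9, 107399749 to 107529346) read 4.99, 5.58 and 5.86 FPKM in wild type and 2.73, 3.01 and 3.1 FPKM in NICD2. Its NICD2 mean was 0.538 of the wild type mean, the largest fall among the members (-0.71 ± 0.09, adjusted p = 0.00184). Cacnb1, a cytoplasmic beta subunit, read 8.01, 7.13 and 7.65 FPKM in wild type and 5.28, 5.67 and 5.64 FPKM in NICD2 (chromosome 11, 98001508 to 98022975; -0.40 ± 0.07, adjusted p = 0.0142). The groups were apart, and the call was lost without NICD2 replicate 1 (adjusted p = 0.0534).

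Cacna1a, the pore of P/Q-type channels best known from nerve endings, read 10, 8.74 and 10.1 FPKM in wild type and 7.25, 6.37 and 7.37 FPKM in NICD2 (chromosome 8, 84338630 to 84640251; -0.41 ± 0.09, adjusted p = 0.0218). Replicate 2 was the lowest of its group in both genotypes. The call was lost without wild type replicate 1 (adjusted p = 0.06), wild type replicate 3 (adjusted p = 0.0728) or NICD2 replicate 2 (adjusted p = 0.0699), and when genes of every level were tested (adjusted p = 0.0522). Cacnb3, the most abundant calcium channel gene, read 24.4, 21.3 and 19.9 FPKM in wild type and 17.3, 18.4 and 17.6 FPKM in NICD2. Its groups were apart without a call (-0.28 ± 0.08, adjusted p = 0.0691). Cacna2d1, which belongs with Cacna2d2, was at 10.5 ± 0.687 and 8.92 ± 0.873 FPKM (adjusted p = 0.172), and Cacna1g, a low-voltage T-type pore, at 13.1 ± 0.864 and 11.7 ± 0.956 FPKM (adjusted p = 0.279). Neuron and glia markers, a list of 8, summed to 6.55 to 28.4 FPKM in wild type and 4.88 to 19.8 FPKM in NICD2, with 3 tested and none called. Their part in the levels of Cacna1a was not tested.

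**Figure D4:**
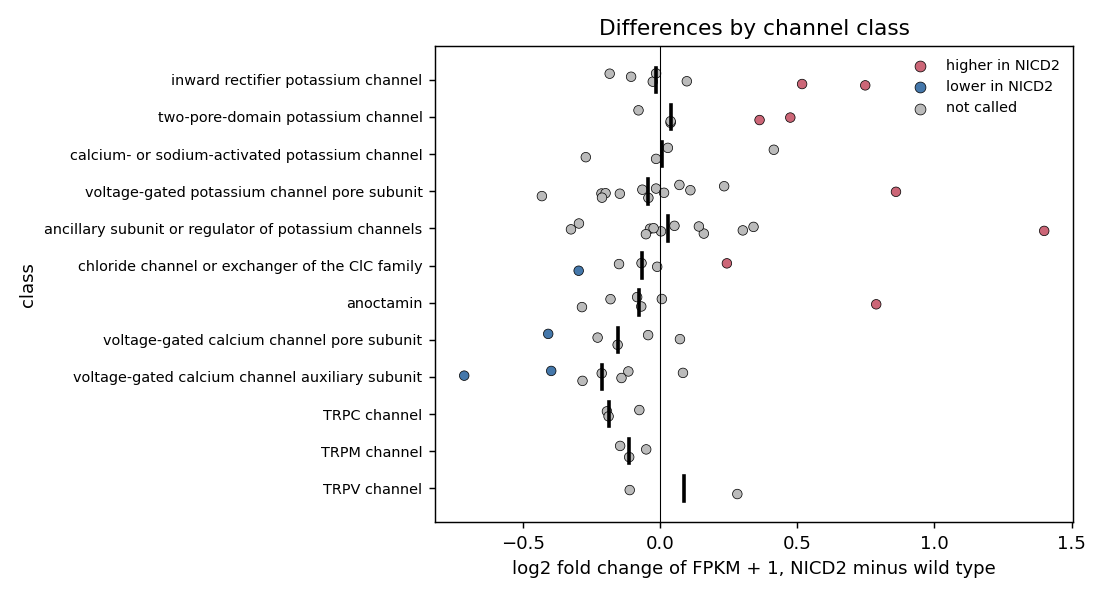
Log2 fold change of FPKM + 1, NICD2 minus wild type, for each member by class (points; spread up and down for sight only), with the class median as a line. Trpc4ap is not drawn. The called potassium channel genes lie right of 0 and the called calcium channel genes left of it.

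Of the 9 TRP genes none was called by limma, and none had an unadjusted p under 0.05. Their fold changes lay between -0.19 and 0.28, and the groups overlapped in all 9. Trpm7, a cation channel fused to a kinase that serves magnesium uptake, was at 22.3 ± 3.07 and 20.4 ± 0.456 FPKM (-0.11 ± 0.09). Trpv4, which responds to flow and osmolality, was at 17.2 ± 0.748 and 15.9 ± 1.14 FPKM (-0.11 ± 0.07). Trpv6, an epithelial calcium uptake channel, had the largest difference, at 3.81, 2.52 and 3.22 FPKM in wild type and 5.05, 3.84 and 3.39 FPKM in NICD2 (0.28 ± 0.15, adjusted p = 0.287). Its groups overlapped through wild type replicate 1, and a rise of this size cannot be told from none with these libraries. Its close relative Trpv5, left out by name, rose from 3.49 ± 0.0379 to 6.23 ± 1.7 FPKM (adjusted p = 0.0293). Whether the responses of Trpv5 and Trpv6 differ was not tested. Trpm4, a calcium-activated sodium channel, was at 6.35 ± 0.583 and 6.08 ± 0.112 FPKM, and the receptor-operated channel Trpc1 was at 4.09 ± 0.316 and 3.48 ± 0.609 FPKM, neither called. Trpc2 shares 97.5% of its exon bases with the readthrough gene Xntrpc, and its level is uncertain. Trpc4ap had the highest level of all members, at 46.3 ± 2.45 and 45.8 ± 1.85 FPKM (-0.02 ± 0.06).

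**Figure D5:**
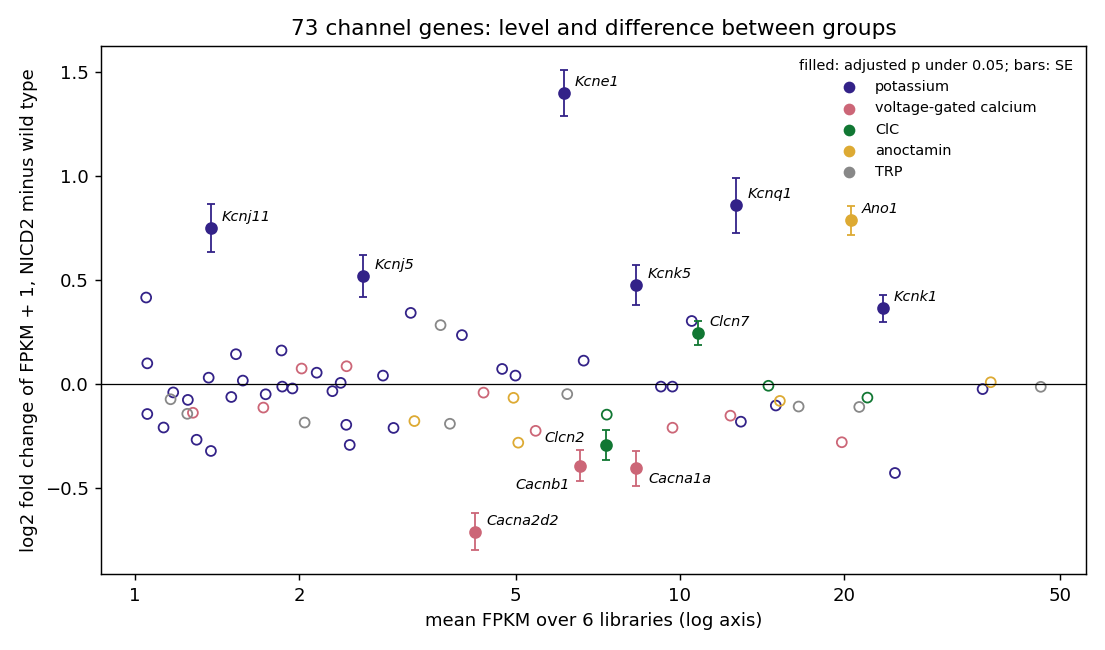
Mean FPKM over the 6 libraries (log axis) against the log2 fold change of FPKM + 1, NICD2 minus wild type, for the 73 members, coloured by family. Filled points passed the adjusted p of 0.05 and carry their standard error; 4 of them lie below 0 and 8 above.

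Of 18 members at 10 FPKM or more, 4 were higher and none lower. Of 13 members between 5 and 10 FPKM 2 were higher and 3 lower. Of 21 between 2 and 5 FPKM 1 was higher and 1 lower. Of 21 under 2 FPKM 1 was higher, Kcnj11, which reached the mean level of 1 FPKM through the NICD2 group. Among all genes tested, 4.93% were higher and 3.86% lower, and these shares were not counted by level. The median spread within groups went from 7.18% of the level in the highest band to 15.2% in the lowest, so smaller differences could pass among abundant genes. The members with means just over 1 FPKM included Kcnn2 (1.05 FPKM) and Kcnj2 (1.05 FPKM), and those just under it were Kcng1 (0.998 FPKM), Cacna2d3 (0.983 FPKM) and Trpv2 (0.897 FPKM). The authors' deposited table gave a q under 0.05 to 42 of the 73 members, among them all 12 called here, where 48.9% of all its genes had such a q. Both comparisons rest on the same libraries.

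Other channel genes, in lists of chloride, calcium or cation, and potassium channel genes that the names do not match, held 52 tested genes. Of these, 3 rose and 3 fell (11.5%), against 8.79% called among all genes tested. The median fold change of the 52 was -0.05. Abcc8, among the 3 that rose, was tested only through its NICD2 level. Among the genes that fell was Bsnd, which encodes a subunit of chloride channels (23.9 ± 0.806 to 16 ± 1.25 FPKM, adjusted p = 0.00244). Bsnd is also 1 of the 8 thick ascending limb markers. Besides Abcc8, the genes that rose were Mcoln3, a lysosomal cation channel (11.5 ± 0.852 to 16.1 ± 0.817 FPKM, adjusted p = 0.00784), and Clca3a1, a secreted regulator of chloride conductance (11.8 ± 0.413 to 15.5 ± 1 FPKM, adjusted p = 0.0154). Clcn5 and Trpm6, left out by name, were not called. Clcn5 had means of 9.93 ± 1.32 and 7.52 ± 0.277 FPKM, and Trpm6 of 1.8 ± 0.139 and 1.79 ± 0.11 FPKM.

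Since Notch acts through the DNA-binding protein RBPJ and through the repressors of the Hes and Hey families, the 250 bases before the start sites in RefSeq (GRCm38.p6) were searched on both strands for the RBPJ motif GTGGGAA and for motifs of the Hes and Hey proteins, the E-box CACGTG and the related site CACGCG. The E-box and the related site begin with the same letters but cannot overlap in a sequence. Of the 73 members 55 had an entry, with 88 start sites, and of the 12 called members 8, with 10 start sites. Among the start sites of members, the RBPJ motif was found in 5.68%, the E-box in 9.09% and the related site in 9.09%. Among all 32851 start sites the shares were 5.42%, 6.02% and 7.62%. Each motif was found at 1 of the 10 start sites of called members. The 3 sequences are shown because they are the called members with a match, which stands in capitals, on the given or the opposite strand. The first base of the match lies at -244 in Ano1, which rose, at -155 in Cacna2d2, which fell, and at -15 in Clcn7, counted from the start site. The start sites of Ano1 and Cacna2d2 in RefSeq lie inside the spans given for these genes above. A match of letters describes the sequence and is not evidence of binding.
Ano1 (chr7:144738574-144738823, minus strand): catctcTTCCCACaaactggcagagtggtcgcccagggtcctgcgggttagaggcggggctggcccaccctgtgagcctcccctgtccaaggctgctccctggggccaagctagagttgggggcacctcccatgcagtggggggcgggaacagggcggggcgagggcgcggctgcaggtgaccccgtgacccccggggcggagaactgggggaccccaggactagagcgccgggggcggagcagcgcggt
Cacna2d2 (chr9:107399630-107399879, plus strand): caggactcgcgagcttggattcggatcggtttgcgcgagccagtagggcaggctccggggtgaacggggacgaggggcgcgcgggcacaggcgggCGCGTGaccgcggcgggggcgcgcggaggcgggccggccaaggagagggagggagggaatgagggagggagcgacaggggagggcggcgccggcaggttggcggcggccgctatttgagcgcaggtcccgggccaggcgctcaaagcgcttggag
Clcn7 (chr17:25133141-25133390, plus strand): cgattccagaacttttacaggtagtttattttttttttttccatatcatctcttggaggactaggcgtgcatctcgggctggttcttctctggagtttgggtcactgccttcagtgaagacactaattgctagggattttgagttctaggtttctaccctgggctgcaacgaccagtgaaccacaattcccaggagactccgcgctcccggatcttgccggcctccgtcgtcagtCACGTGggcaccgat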

How the data were processed

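RNA of whole kidneys was sequenced in 6 libraries, from 1 ug of total RNA with a TruSeq kit, per the labels. The authors deposited 1 table with FPKM per gene and library to 2 decimals, per the file headers, along with a q-value, a p-value and a log2 fold change that the authors had from DEGseq. Bowtie 0.12.2 and build mm8 stand in the submitters' processing notes, whereas the table's own positions match GRCm38. For the FPKM program, for strand and for multiply mapped reads, the sources used here give no account of the handling. A further 27 columns that compare single samples were not used.

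Values were taken as log2(FPKM + 1). The 13765 genes that reached 1 FPKM in 3 or more libraries, all 73 members among them, were fitted with limma 3.58.1 (R 4.3.3, mean-variance trend, two-sided, no other covariate), and p-values were adjusted by Benjamini-Hochberg over all of them, with a threshold of 0.05. The fit was tested on simulated data. Depth was estimated from the steps between low values of short genes, with 140 bases taken off each transcript length; 74.6% to 78.9% of these values came within 0.15 fragments of a whole number, where 30% do by chance. Fragment numbers are therefore estimates and cover counting error only.

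The members and lists were chosen with earlier results of these data known. Named genes were all called members, the 2 most abundant of each class, the 6 largest differences without a call among members with groups apart, those nearest the 1 FPKM limit, partner pairs, Notch targets, called genes of the other lists and those left out by name. Kcnj8, Abcc9, Trpc2 and the pair Kcnj11 and Abcc8 as a ratio were added after their values were seen. Some genes that this rule names are not reported here. Exon overlaps are from GENCODE M21. Alternatives were a pseudocount of 0.1, other filters and scalings, limma's robust option, the replicate block and each library left out, and, added after seeing the data, a term for the libraries low in adrenal markers and a fit without them. Python 3.11.15 and pandas 2.3.3 made the tables.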

Additional observations from a re-analysis of the deposited data

How the results depend on the processing

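Of the 12 calls among the members, those of Kcne1, Ano1, Cacna2d2 and Kcnq1 were kept under all 15 alternatives, and no called gene changed direction. Of 180 values for the 12 genes, 144 stayed under the threshold and 36 did not, with an adjusted p of at most 0.225, for Clcn2 in the 4 libraries high in adrenal markers. The cause of these losses was not tested. Higher members numbered 8, and 6 to 7 on leaving out 1 library. Lower members numbered 4, and 2 to 3 on leaving out 1 library, with 2 without wild type replicate 3, NICD2 replicate 1 or NICD2 replicate 2. With no filter on low values, lower members numbered 2. With the 4 libraries high in adrenal markers, higher members numbered 4, lower members 1 and higher genes of the other channel lists 1; limma's robust option gave 5 of the latter. Among the 27 named genes without a call, 382 of 405 values kept direction and side of the threshold, 2 passed it (Kcnh6 without wild type replicate 1, Kcne1l without wild type replicate 2) and 21 changed sign, all near 0. Ano6 was at -0.001 with upper-quartile scaling. In the fits that leave out 1 library, values went from -0.018 to 0.043 for Ano6. Clcn3 was at 0.001 with median-ratio scaling, at 0.109 in the 4 libraries and at -0.098 to 0.067 on leaving out a library. Kcnj16 was at 0.023 in the 4 libraries and at -0.151 to 0.055 on leaving out a library. Leaving out a library also gave -0.061 to 0.107 for Kcnma1, -0.076 to 0.029 for Kcnn1, -0.045 to 0.026 for Trpc4ap and -0.096 to 0.013 for Trpm4. Replicate numbers did not pair the libraries: deviations of same-numbered libraries correlated at -0.033, 0.059 and -0.045. Those of differently numbered libraries correlated at -0.253 to 0.246. The highest was that of wild type replicate 3 with NICD2 replicate 1, the libraries low in adrenal markers. With the replicate block limma called 7 higher and 3 lower members, and 1055 genes in all against 1210. On leaving out 1 library it called 624 to 985 genes. Depth limits the members near 1 FPKM, where Cacng4 rests on about 25 fragments.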

Other observations

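The 77 channel genes with a mean under 1 FPKM, of which 17 stayed under 0.1 FPKM in every library, held 2 that passed the filter on low values, and limma called neither (0 with an unadjusted p under 0.05). With no filter on low values, limma called 4 of the 77, all lower in NICD2, where it called 894 of 19658 genes. Trpm5, a calcium-activated cation channel of taste cells, read 0.59, 0.64 and 0.6 FPKM in wild type and 0.33, 0.27 and 0.26 FPKM in NICD2 (adjusted p = 0.0162). Kcnh3, a voltage-gated potassium channel best known from brain, read 0.48, 0.47 and 0.39 FPKM and then 0.15, 0.23 and 0.19 FPKM (adjusted p = 0.0283). Kcnmb2, a beta subunit of the large-conductance potassium channel, read 0.68, 0.58 and 0.69 FPKM and then 0.37, 0.28 and 0.39 FPKM (adjusted p = 0.0417). Kcnj13, an inward rectifier of transporting epithelia, read 0.32, 0.39 and 0.6 FPKM and then 0.06, 0.16 and 0.08 FPKM (adjusted p = 0.0491). The groups were apart for all 4, which were chosen after their values were seen.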
